A study of Homo sapiens with 8 samples.

Results

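The small MAF genes MAFF, MAFG and MAFK and 3 genes of their partner proteins, BACH1, NFE2L1 and NFE2L2, were followed through an RNA-seq experiment on a pair of triple-negative breast cancer (TNBC) cell lines, MDA-MB468 and BT549. The 6 genes were selected on measured values of the same data, their counts per 1000000 counts on genes (CPM) in the 8 libraries and the log2 ratios in 4 Acetalax-control pairs and 2 CE-parental control pairs. Those values are therefore given as a description, with no test. All 6 genes were found among the 55679 gene identifiers of the count table, and all 6 passed the filter on low counts that left 19693 genes for testing. BACH1 was listed in 2 rows with the same counts and was used once.

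Each line was sequenced as parental cells and as chronic exposure (CE) cells, each untreated (control) or after 6 hours in 1 μmol/L Acetalax (oxyphenisatin acetate). The CE cells were resistant clones that had been raised in Acetalax up to 40 μmol/L and then kept without drug for 2 weeks, and no parental culture had that history. Every condition was 1 library, so the 4 Acetalax-control pairs have no replicate within a background. CE cells descend from the parental line, so they limit the comparison to 1 selected population per line and are not independent of it.

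Library totals over all genes lay between 42261122 and 54241728 counts, a 1.28-fold range, and 95% Wilson intervals on CPM cover counting error only. Markers matched the labelled lines. CDH1 lay between 119 and 155 CPM in the MDA-MB468 libraries and below 1 CPM in the BT549 libraries, whereas VIM lay between 864 and 1414 CPM in BT549. Of the markers of other cells, CD3E and HBB were at 0 in all 8 libraries and PTPRC reached at most 0.76 CPM.

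Small MAF proteins are short basic leucine zipper factors that bind DNA but carry no transactivation domain. They act through their partners, the cap'n'collar (CNC) factors NRF1 (gene NFE2L1) and NRF2 (gene NFE2L2), which activate antioxidant response element (ARE) genes, and the BACH proteins, which repress them. BACH1 is released from DNA by haem, and NRF2 protein is normally held low by KEAP1, so much of the control of this network lies beyond RNA level. Pairs of small MAFs without a CNC partner can also occupy these elements as repressors.

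In hg19, the build of the count table, MAFF (ENSG00000185022) lies on chromosome 22 from 38597889 to 38612518, MAFG (ENSG00000197063) on chromosome 17 from 79876146 to 79885590 and MAFK (ENSG00000198517) on chromosome 7 from 1570350 to 1582679. BACH1 (ENSG00000156273) lies on chromosome 21 from 30566392 to 31003071, NFE2L1 (ENSG00000082641) on chromosome 17 from 46125691 to 46138849 and NFE2L2 (ENSG00000116044) on chromosome 2 from 178092323 to 178257425. The strand setting of the counts is not stated, and reads shared with overlapping genes cannot be assigned. SIRT7, on the same strand as MAFG, had 24.2 to 66.4 CPM of its own. TMEM184A, opposite MAFK, had 0.119 to 55.9 CPM, and AGPS, opposite NFE2L2, had up to 81.7 CPM. The genes that overlap MAFF, BACH1 and NFE2L1 were each below 9 CPM.

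The promoters of MAFF, MAFG and BACH1 are shown because these genes were among those higher after Acetalax, and that of BACH2 because it is the CNC-family gene outside the 6 that passed the test described further on. Each run covers 200 bases before and 20 after a RefSeq gene start in GRCh38.p14, read on the gene's own strand, at chr22:38201794-38202013 (plus strand, MAFF), chr17:81927716-81927935 (minus strand, MAFG), chr21:29298722-29298941 (plus strand, BACH1) and chr6:90296824-90297043 (minus strand, BACH2). Capitals mark matches to a searched motif.
MAFF: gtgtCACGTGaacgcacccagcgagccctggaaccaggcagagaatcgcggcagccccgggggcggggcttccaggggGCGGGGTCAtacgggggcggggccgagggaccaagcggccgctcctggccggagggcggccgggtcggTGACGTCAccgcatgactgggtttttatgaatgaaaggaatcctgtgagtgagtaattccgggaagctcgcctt
MAFG: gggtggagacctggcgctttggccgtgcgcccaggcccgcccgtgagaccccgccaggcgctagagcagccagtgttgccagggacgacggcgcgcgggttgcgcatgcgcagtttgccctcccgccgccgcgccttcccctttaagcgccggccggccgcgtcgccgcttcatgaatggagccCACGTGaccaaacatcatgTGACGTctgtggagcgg
BACH1: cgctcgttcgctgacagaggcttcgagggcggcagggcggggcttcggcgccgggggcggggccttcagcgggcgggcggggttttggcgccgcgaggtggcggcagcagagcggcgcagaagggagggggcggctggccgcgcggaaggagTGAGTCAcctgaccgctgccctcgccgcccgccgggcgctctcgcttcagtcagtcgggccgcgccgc
BACH2: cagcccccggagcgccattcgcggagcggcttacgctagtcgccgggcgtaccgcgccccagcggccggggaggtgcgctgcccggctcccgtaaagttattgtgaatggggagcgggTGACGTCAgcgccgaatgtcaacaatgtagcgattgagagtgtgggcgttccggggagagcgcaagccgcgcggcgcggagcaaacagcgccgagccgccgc

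Motifs were searched on both strands in windows from 250 bases before to 50 after each start, 35116 windows in all. RefSeq gave 10 such windows for 5 of the 6 genes, of which the printed runs cover 1 of 2 for MAFF, the only one for MAFG and 1 of 3 for BACH1. Where a gene had several windows, the one with most motif letters was printed. The other windows of BACH1 held no match. The cyclic AMP response element (CRE, TGACGTCA), held by 1.85% of all windows, matched once in MAFF at -54 to -47 and once in BACH2 at -82 to -75, counted from the start. Its shorter form TGACGT, which lies inside every full CRE and was held by 7.98% of windows, matched in MAFG at 4 to 9. The E-box CACGTG, in 7.26% of windows, matched in MAFF at -196 to -191, in the second MAFF window at -81 to -76 and in MAFG at -16 to -11. The AP-1 site TGAGTCA, in 4.95% of windows, matched in BACH1 at -48 to -42. An ARE core (TGACNNNGC, in 13.3% of windows) matched in MAFF at -122 to -114 on the reverse strand. The 2 windows of NFE2L1 and the 2 of NFE2L2 held none of these letters. The motifs were chosen after the sequences had been seen, and a match is a description of letters only.

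The small MAF genes were higher after Acetalax in every background, and of the 3 genes MAFF had the largest ratio in each. In these bulk libraries fewer responding cells and less RNA per cell cannot be told apart. MAFF, the small MAF with the widest range here, stood at 23.3 CPM in the MDA-MB468 parental control and 143 CPM after Acetalax. In MDA-MB468 CE cells it went from 23.1 to 49.8 CPM, in BT549 parental cells from 57.0 to 230.0 CPM and in BT549 CE cells from 18.1 to 263 CPM. The treated libraries of 3 backgrounds lay above every control, and that of MDA-MB468 CE lay below the BT549 parental control. The log2 ratio, taken after adding 0.5 CPM to each value, was 2.60 (95% counting interval 2.51 to 2.69) in MDA-MB468 parental cells, 1.09 (0.98 to 1.19) in MDA-MB468 CE cells, 2.00 (1.94 to 2.07) in BT549 parental cells and 3.82 (3.73 to 3.92) in BT549 CE cells. These equal 6.05-fold, 2.12-fold, 4.01-fold and 14.2-fold. Among the 11135 genes that averaged 5 CPM or more, MAFF ranked 31, 134, 8 and 2 by that ratio, in the same order of backgrounds.

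MAFG, a broadly expressed partner of CNC factors, stood at 38.5 CPM in the MDA-MB468 parental control and 119 CPM after Acetalax. It went from 42.9 to 62.4 CPM in MDA-MB468 CE cells, from 55.9 to 191 CPM in BT549 parental cells and from 37.9 to 169 CPM in BT549 CE cells. The treated libraries were all above the 4 controls. Log2 ratios were 1.61, 0.54, 1.76 and 2.14 in MDA-MB468 parental, MDA-MB468 CE, BT549 parental and BT549 CE cells. The smallest ratio, in MDA-MB468 CE cells, had a counting interval of 0.45 to 0.62 and the largest, in BT549 CE cells, one of 2.07 to 2.21, so these differ by far more than counting error.

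MAFK, known as a subunit of the erythroid factor NF-E2, went from 60.6 to 194 CPM in MDA-MB468 parental cells and from 63.1 to 99.7 CPM in MDA-MB468 CE cells. In BT549 it went from 55.3 to 101 CPM in parental and from 47.3 to 125 CPM in CE cells. Its highest library was thus treated MDA-MB468 parental cells, whereas those of MAFF and MAFG were treated BT549 libraries. The log2 ratios were 1.67, 0.66, 0.87 and 1.40 in the order MDA-MB468 parental, MDA-MB468 CE, BT549 parental and BT549 CE. Controls of MAFK spanned a narrow range, 47.3 to 63.1 CPM, against 18.1 to 57.0 CPM for MAFF.

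BACH1, the haem-binding repressor of ARE genes, was higher after Acetalax in 3 of 4 backgrounds. Its level went from 28.9 to 43.6 CPM in MDA-MB468 parental cells, from 31.2 to 48.1 CPM in BT549 parental cells and from 33.5 to 72.9 CPM in BT549 CE cells. In MDA-MB468 CE cells it was 24.2 CPM in control and 22.7 CPM after Acetalax, with overlapping counting intervals. The log2 ratios were 0.59 and 0.62 in the parental cells of MDA-MB468 and BT549, -0.09 (interval -0.21 to 0.03) in CE cells of MDA-MB468 and 1.11 in CE cells of BT549.

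NFE2L2, the gene of NRF2, went in opposite directions in the lines. In MDA-MB468 it went from 194 to 164 CPM in parental and from 164 to 128 CPM in CE cells, log2 ratios of -0.24 and -0.35. In BT549 it went from 83.9 to 101 CPM in parental and from 78.0 to 159 CPM in CE cells, log2 ratios of 0.27 and 1.02. The treated BT549 CE library reached the level of the MDA-MB468 libraries, and the other 3 BT549 libraries lay below all of them. The difference between lines was not tested, since the gene was chosen with these ratios known.

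NFE2L1, the gene of NRF1, which drives proteasome genes after cleavage of its precursor, varied least. It went from 132 to 148 CPM in MDA-MB468 parental cells, from 136 to 132 CPM in MDA-MB468 CE cells, from 172 to 159 CPM in BT549 parental cells and from 227 to 209.7 CPM in BT549 CE cells. The 4 log2 ratios lay between -0.12 and 0.17. Under other scalings the sign turned in the CE cells of both lines, in BT549 from -0.11 to 0.04 (TMM) and 0.09 (DESeq2 size factors) and in MDA-MB468 from -0.04 to 0.03 and 0.04.

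**Figure D1:**
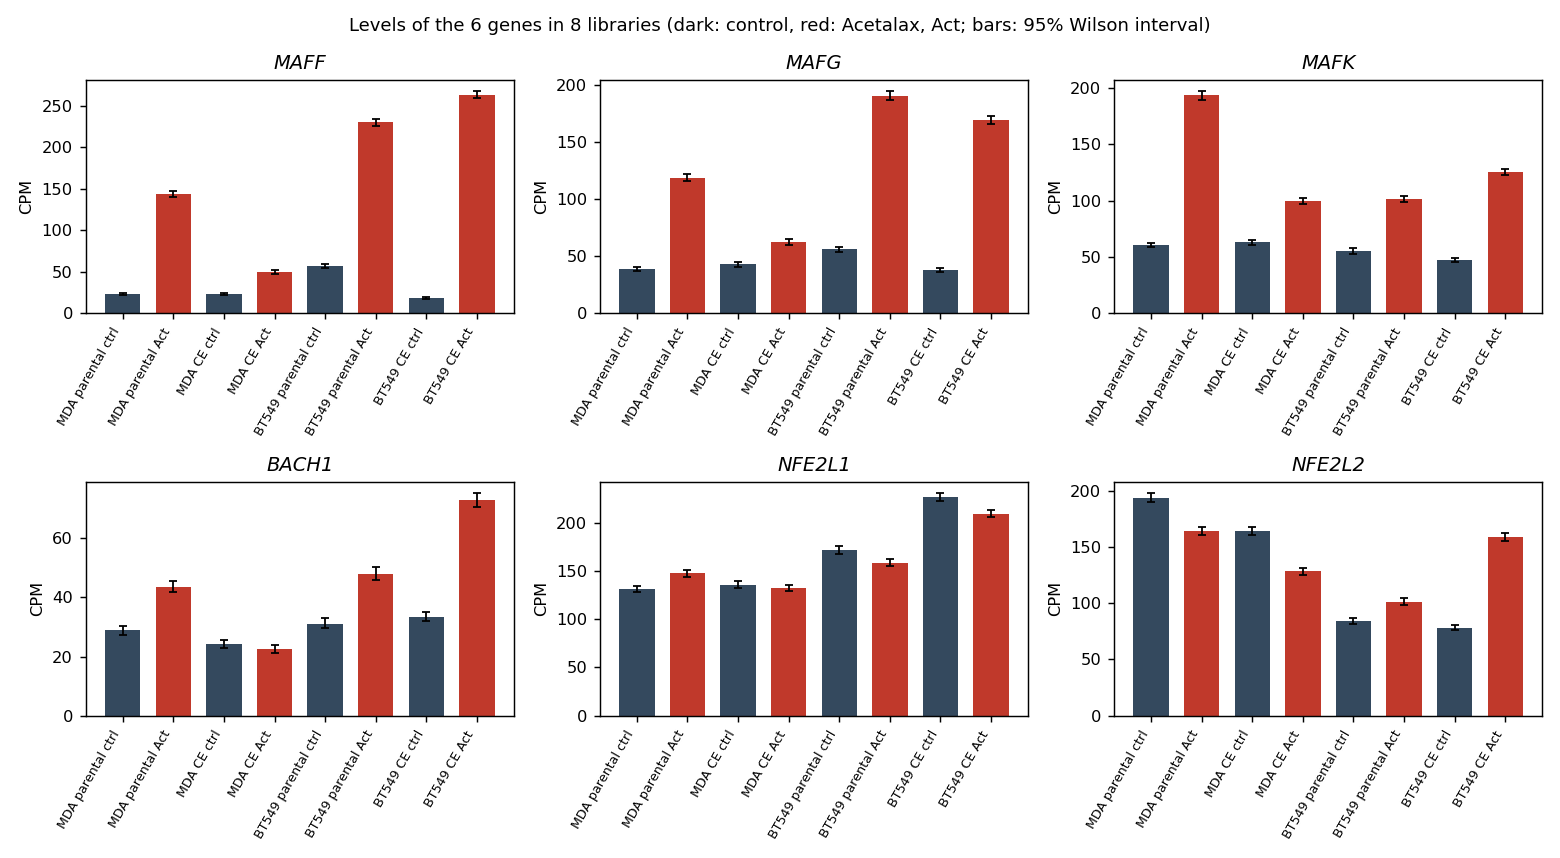
Level of each gene in CPM (y axis, linear from 0) in the 8 libraries (x axis: MDA stands for MDA-MB468, ctrl for control and Act for Acetalax). Bars are single libraries, dark for control and red for Acetalax, with 95% Wilson counting intervals. MAFF ranges from 18.1 to 263 CPM, and NFE2L1 from 132 to 227 CPM.

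Counted at 2-fold or more, 3 of the 6 genes (MAFF, MAFG and MAFK) were higher in MDA-MB468 parental cells, beside 3.86% of the 14030 genes that averaged 1 CPM or more. In MDA-MB468 CE cells 1 of 6 (MAFF) was, beside 1.6% of genes. The count was 2 of 6 (MAFF and MAFG) in BT549 parental cells, beside 1.3%, and 5 of 6 (all but NFE2L1) in BT549 CE cells, beside 3.39%. Nothing is read from these counts, because the ratios chose the genes. The median log2 ratio of the 6 genes was 1.10, 0.25, 0.74 and 1.25 in MDA-MB468 parental, MDA-MB468 CE, BT549 parental and BT549 CE cells, against -0.09, -0.04, -0.10 and -0.17 over the 11135 genes. Scaling moved the latter median in BT549 CE cells from -0.17 to -0.03 (TMM) or 0.01 (DESeq2 size factors), and the ratios of the 6 genes moved with it.

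**Figure D2:**
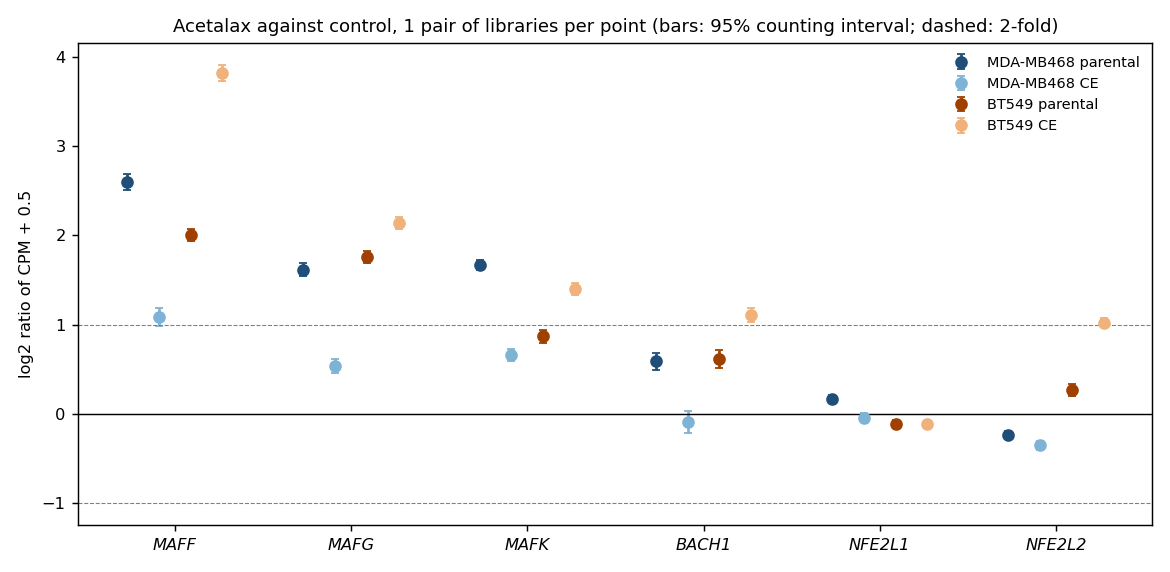
Log2 ratio of Acetalax to control, after adding 0.5 CPM (y axis), for the 6 genes (x axis) in 4 pairs of libraries. Points are single pairs, bars 95% counting intervals and dashed lines a 2-fold difference. MAFF reaches 3.82 in BT549 CE cells, and NFE2L2 lies below 0 in both MDA-MB468 pairs and above 0 in both BT549 pairs.

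The CE and parental cells of each line differed in these responses in opposite directions. In MDA-MB468, the log2 ratio of Acetalax to control was lower in CE than in parental cells for all 6 genes, which for NFE2L2 means a lower value of a ratio already below 0. The difference of log2 ratios, CE minus parental, was -1.51 (counting interval -1.65 to -1.37) for MAFF, -1.08 for MAFG, -1.01 for MAFK and -0.68 for BACH1. It was -0.21 for NFE2L1 and -0.12 for NFE2L2. In BT549 the CE response was larger for MAFF by 1.82 (1.71 to 1.93), for NFE2L2 by 0.76, for MAFK by 0.53, for BACH1 by 0.49 and for MAFG by 0.38. For NFE2L1 the difference was 0.004 (-0.06 to 0.06) with scaling by the total count. With TMM scaling the BT549 log2 ratios of NFE2L1 were 0.04 in CE and -0.04 in parental cells, further apart than that interval. The counting intervals do not cover the choice of scaling. Each difference rests on 4 single libraries, so the intervals carry no variation between cultures, and the pairs have no replicate test.

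Where the difference arose was not the same in the lines for MAFF. In MDA-MB468 the control levels of parental and CE cells were alike for MAFF (log2 ratio -0.01, interval -0.13 to 0.11), and that of the treated levels was -1.52 (-1.58 to -1.45). In BT549 the ratio of CE to parental controls was -1.63 (-1.73 to -1.52), whereas that of the treated levels was 0.20 (0.16 to 0.23). The ratios of each line share libraries with its Acetalax ratios and are not independent of them. That lower control made MAFF the 1 gene of 6 at least 2-fold lower in BT549 CE controls, beside 4.45% of genes lower and 6.23% higher by that fold, with 0 of the 6 higher. In MDA-MB468 controls 0 of the 6 were at least 2-fold higher, beside 1.64% of genes.

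MAFG and MAFK showed the MDA-MB468 pattern in smaller steps. Between CE and parental controls of MDA-MB468 the log2 ratio was 0.15 for MAFG and 0.06 for MAFK, and between the treated libraries it was -0.92 and -0.95. In BT549, MAFG was at -0.55 in control and -0.17 in Acetalax, the latter turning to 0.05 with DESeq2 size factors. MAFK was at -0.22 and 0.31 there. The small MAF genes thus started from like control levels in parental and CE cells of MDA-MB468 and ended lower in treated CE cells.

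Among the partners, BACH1 had CE-parental log2 ratios of -0.25 in control and -0.93 in Acetalax in MDA-MB468, and of 0.10 and 0.60 in BT549. NFE2L2 had -0.24 and -0.35 in MDA-MB468, and -0.11 and 0.65 in BT549. NFE2L1 was higher in BT549 CE cells, by 0.40 in control and 0.40 in Acetalax, and had 0.05 and -0.16 in MDA-MB468. With DESeq2 size factors the BT549 values were 0.45 in control and 0.63 in Acetalax.

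**Figure D3:**
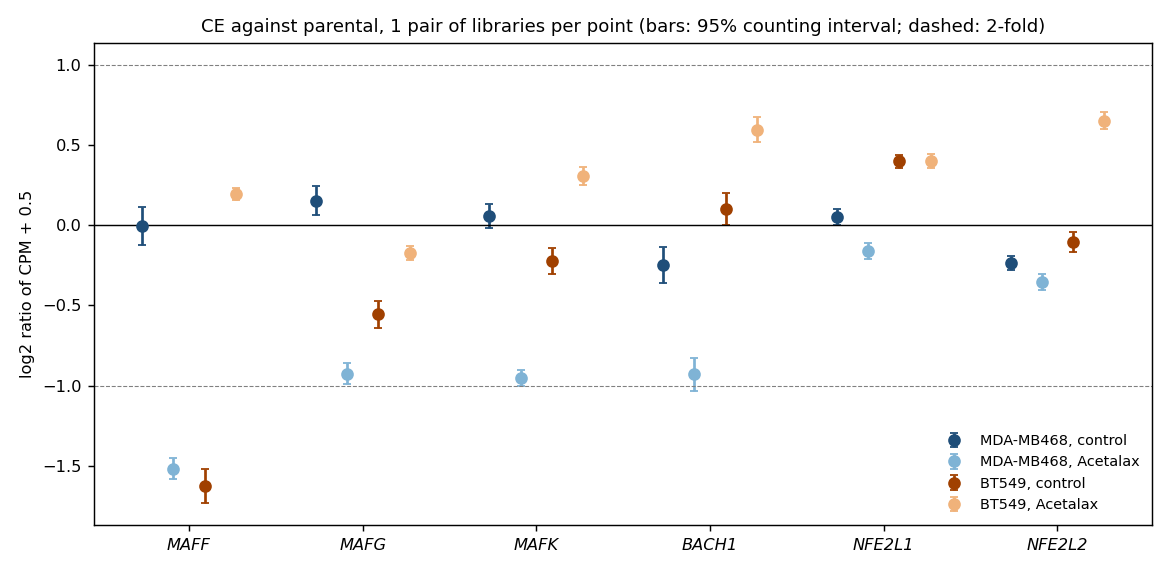
Log2 ratio of CE to parental cells, after adding 0.5 CPM (y axis), for the 6 genes (x axis), in control and in Acetalax libraries of each line. Points are single pairs, bars 95% counting intervals and dashed lines a 2-fold difference. MAFF lies near 0 in MDA-MB468 control and at -1.52 in MDA-MB468 Acetalax, and at -1.63 in BT549 control and 0.20 in BT549 Acetalax.

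To set genes of unequal length side by side, FPKM (CPM per kilobase of merged exons) was used. In the MDA-MB468 parental control, levels per length were 4.15 FPKM for MAFF, 7.34 for MAFG, 13.5 for MAFK, 3.76 for BACH1, 22.4 for NFE2L1 and 12.9 for NFE2L2. The merged exons of NFE2L2 span 14975 bases, against 4470 to 7666 for the other 5 genes, and its place in the order depends on the length used. With the longest transcript NFE2L2 led at 38.0 FPKM, before NFE2L1 at 27.2 and MAFK at 17.9, whereas with merged exons NFE2L1 led. The summed FPKM of the small MAF genes was 25.0 in MDA-MB468 parental control and 91.5 after Acetalax, 26.4 and 43.1 in MDA-MB468 CE, 33.2 and 100.1 in BT549 parental and 21.1 and 107 in BT549 CE cells.

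The makeup of that sum moved toward MAFF after Acetalax in all 4 backgrounds. MAFF made up 16.6% of it in MDA-MB468 parental control and 27.9% after Acetalax, and 15.6% and 20.6% in MDA-MB468 CE cells. In BT549 the share of MAFF went from 30.6% to 41.0% in parental and from 15.3% to 43.8% in CE cells. MAFK held the largest share in the 4 MDA-MB468 libraries, from 47.3% to 54.1%, and in the BT549 parental and CE controls, 37.2% and 50.3%. In the treated BT549 libraries its share was 22.7% and 26.2%, below those of MAFF and MAFG. The share of MAFG stayed between 24.8% and 36.4% in all 8 libraries. With the length of the longest transcript each share stayed within 1.5 times its value, and the share of MAFF was still higher after Acetalax in all 4 backgrounds. The order turned in some libraries, with MAFF (38.8%) above MAFK (36.5%) in the BT549 parental control and MAFK (24.6%) above MAFG (22.2%) in treated BT549 CE cells. In treated MDA-MB468 CE cells MAFF (26.6%) then lay above MAFG (21.6%), against 20.6% and 27.6% with merged exons.

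**Figure D4:**
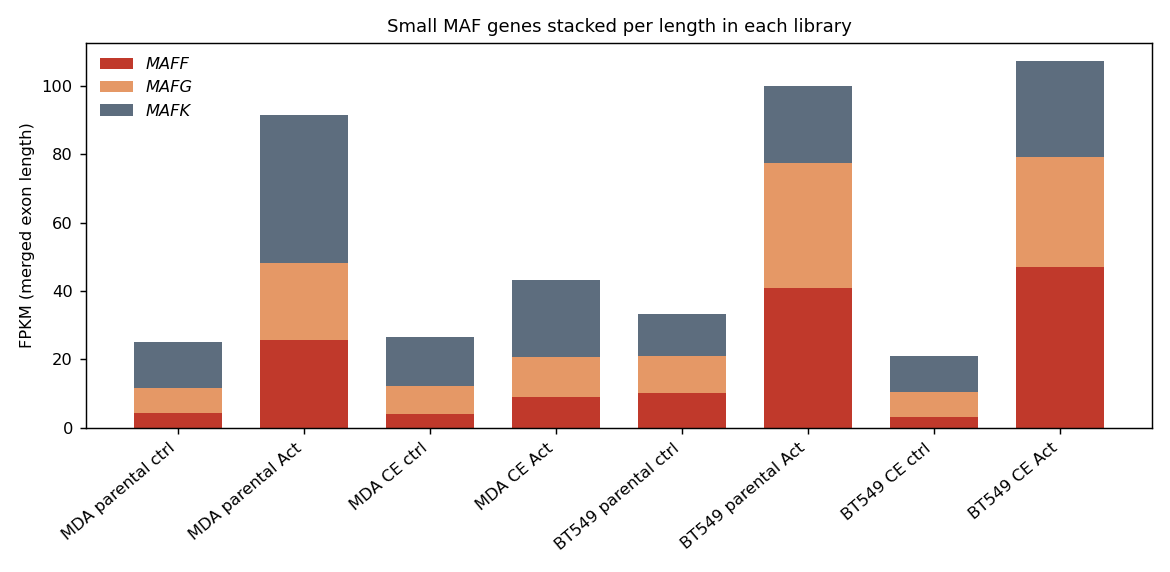
Levels of MAFF, MAFG and MAFK per length, stacked, in FPKM (y axis, linear from 0) in the 8 libraries (x axis, abbreviated as in the plot of CPM). The stacks reach 91.5 to 107 FPKM after Acetalax except in MDA-MB468 CE cells (43.1), and controls lie between 21.1 and 33.2.

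Between the lines in the same condition, BACH1 and NFE2L1 were higher in BT549 throughout and the other 4 genes were not on one side in every condition. The levels in the 8 libraries were among the values that chose the genes, so the line differences are descriptions too, given without a test. They are fitted log2 fold changes, BT549 minus MDA-MB468, from an edgeR fit of all 8 libraries with an intercept for each of the 4 conditions and 1 term for line.

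BACH1 and NFE2L1 were higher in BT549 in 4 of 4 conditions, by 0.75 (SE 0.32) and 0.64 (SE 0.17). For NFE2L1 the value stayed between 0.54 and 0.78 over 7 alternative fits, and for BACH1 between 0.37 and 0.97. The BACH1 difference was uneven. In parental cells BACH1 stood at 31.2 CPM in BT549 and 28.9 CPM in MDA-MB468 controls, with overlapping counting intervals, and at 48.1 and 43.6 CPM after Acetalax. In CE cells it stood at 33.5 and 24.2 CPM in controls, and the treated CE pair was furthest apart, at 72.9 and 22.7 CPM. MAFF was higher in BT549 in 3 of 4 conditions, by 1.17 (SE 0.44), and MAFG likewise, by 0.78 (SE 0.27). The exception for both was the CE control, where MAFF stood at 18.1 CPM in BT549 and 23.1 CPM in MDA-MB468, and MAFG at 37.9 and 42.9 CPM. Without the treated CE pair the fold change was 0.68 for MAFF and 0.48 for MAFG.

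NFE2L2 was lower in BT549 in 3 of 4 conditions, at -0.51 (SE 0.29). The exception was the treated CE pair, with 159 CPM in BT549 and 128 CPM in MDA-MB468, and without it the value was -0.86. MAFK was at -0.12 (SE 0.23), lower in BT549 in 3 of 4 conditions, and over the 7 alternatives it lay between -0.36 and 0.11.

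Genes whose 4 Acetalax log2 ratios were most like those of each of the 6 were sought among the 11134 others that averaged 5 CPM or more, by the root-mean-square difference. Nearest to MAFF were HBEGF (an EGF receptor ligand, difference 0.447), GEM (a small GTP-binding protein, 0.449), IL6 (a cytokine, 0.549), INHBA (an activin subunit, 0.569) and CREB5 (a CRE-binding factor, 0.720). HBEGF had log2 ratios of 1.98, 0.61, 1.58 and 3.72 in MDA-MB468 parental, MDA-MB468 CE, BT549 parental and BT549 CE cells. MAFF thus had no neighbour within 0.4 log2 units.

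Nearest to MAFG were ADAMTS1 (a secreted protease, 0.141), the clock genes PER1 (0.260) and CRY1 (0.324), IRS2 (an insulin receptor substrate, 0.316) and CTGF (a matricellular protein, 0.325). ADAMTS1 had ratios of 1.50, 0.39, 1.60 and 2.27 in the same order. MAFK was nearest to LINC00702 (0.113), NEDD4L (a ubiquitin ligase, 0.156) and GLIS3 (a zinc finger factor, 0.172).

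BACH1 lay nearest to TES (0.0794), SQSTM1 (0.0814), the gene of the autophagy receptor p62 that binds KEAP1, and CYLD (a deubiquitinase, 0.0879). NFE2L1 lay nearest to TRIP12 (0.0239), ITSN2 (0.0288) and CIB1 (0.0345), and NFE2L2 to BARX2 (0.0771), GOT1 (0.092) and FOXP1 (0.111). These are likenesses over 4 pairs, and with ratios near 0 many genes are close by construction.

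The wider pathway was read from 5 lists of 88 genes, of which 85 were tested. Over the 4 backgrounds, with a background intercept and 1 Acetalax term, edgeR's quasi-likelihood test called 2.72% of all genes higher and 2.27% lower after Acetalax at an adjusted p under 0.05 (Benjamini-Hochberg over 19693 genes), with a median log2 fold change of -0.04. Of the 85 list genes 1 was called higher and 0 lower (24 at an unadjusted p under 0.05, 9 called in DESeq2), with a median of 0.06.

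The call was BACH2, a BACH1 relative known for repression in lymphocytes, in the list of large MAF and other CNC factors (1 of 6 tested). BACH2 had 0.51, 3.77, 0.18 and 0.99 CPM in MDA-MB468 parental control, parental Acetalax, CE control and CE Acetalax libraries. In BT549 it had 1.89, 4.81, 0.96 and 4.88 CPM in the same order. It was higher after Acetalax in 4 of 4 pairs, a fitted log2 fold change of 2.29 (SE 0.29, edgeR adjusted p = 0.0286). These levels rest on few reads, 8 in the MDA-MB468 CE control. The call was lost without the MDA-MB468 parental pair (edgeR adjusted p = 0.170) and with separate terms for parental (0.543) and CE cells (0.297). Those fits called 0 of all genes, so the loss is not particular to BACH2. BACH2 passed in 8 of 11 alternatives. The log2 ratio of BACH2, like those of the small MAF genes, was smaller in CE than in parental MDA-MB468 cells (difference -0.95, counting interval -1.46 to -0.43) and larger in CE than in parental BT549 cells (0.74, 0.30 to 1.17).

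Regulators of NRF2 and NRF1 protein had 0 of 12 called in edgeR (4 at an unadjusted p under 0.05, 3 called in DESeq2), with a median log2 fold change of 0.12. KEAP1, the adaptor that sends NRF2 to degradation, had 283 CPM in MDA-MB468 parental control and 209 CPM after Acetalax, 177 and 170.5 CPM in MDA-MB468 CE, 132 and 119 CPM in BT549 parental and 112 and 72.0 CPM in BT549 CE cells. In CPM it was lower after Acetalax in 4 of 4 pairs, without passing the test (-0.23, edgeR adjusted p = 0.223). The difference in MDA-MB468 CE cells was small and its sign depended on scaling, with raw counts of 7821 in control and 8107 after Acetalax. NGLY1, the deglycosylase that NRF1 needs for activity, had log2 ratios of -0.56, -0.14, -0.65 and -1.01, and GSK3B, a kinase that marks NRF2, had 0.87, 0.44, 0.10 and 0.46.

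NRF2 target genes had 0 of 26 called in edgeR (12 at an unadjusted p under 0.05, 5 called in DESeq2), with a median of 0.001. Their fitted log2 fold changes ran from -1.23 for GPX2 (edgeR adjusted p = 0.171) to 1.29 for OSGIN1 (edgeR adjusted p = 0.0856). NQO1, a quinone reductase, had log2 ratios of -0.12, -0.09, 0.16 and 0.10, and GCLM, of glutathione synthesis, had 0.18, 0.00, 0.21 and 0.40. AKR1C3, a ketosteroid reductase with near-identical relatives whose reads are hard to place, had -0.80, -0.83, -0.39 and -0.38. Proteasome subunits, the known NRF1 targets, had 0 of 31 called in edgeR and in DESeq2 (3 at an unadjusted p under 0.05), with a median of 0.07.

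Haem and iron genes had 0 of 10 called in edgeR and in DESeq2 (2 at an unadjusted p under 0.05), and the median was -0.08. Their best known member, HMOX1, the haem oxygenase repressed by BACH1, split by line. HMOX1 had 13.8, 7.74, 28.0 and 18.1 CPM in MDA-MB468 parental control, parental Acetalax, CE control and CE Acetalax libraries, and 223, 798, 219 and 848 CPM in those of BT549. Its log2 ratios were -0.79 and -0.61 in MDA-MB468 and 1.84 and 1.95 in BT549.

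The difference between lines in the Acetalax response was tested in a fit with separate terms for each line, added after the data had been seen. It called 0.533% of all genes higher and 1.25% lower in BT549 than in MDA-MB468, and 1 of the 85 list genes, HMOX1. The parental and CE pairs of a line stand in for replicates in that fit, so its p-values measure the spread between those pairs. CE cells descend from the parental line, so the pairs are not independent. The difference for HMOX1 was 2.68 on the log2 scale (SE 0.15, edgeR adjusted p = 0.00283), and it passed in 7 of 7 alternatives. The parental and CE responses of HMOX1 differed little, by 0.18 (interval -0.03 to 0.39) in MDA-MB468 and 0.12 (0.07 to 0.16) in BT549, beside -1.51 and 1.82 for MAFF.

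**Figure D5:**
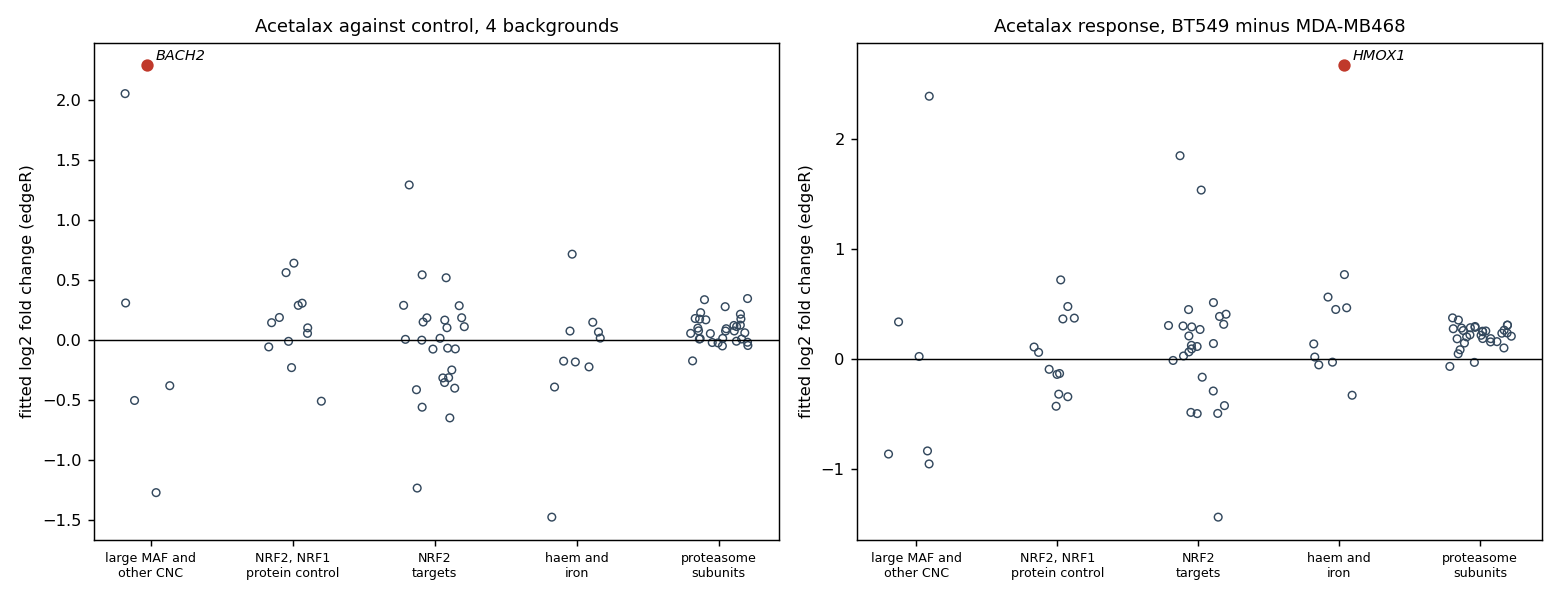
Fitted log2 fold change (y axis) of the tested genes of the 5 pathway lists (x axis), for Acetalax against control on the left and for the Acetalax response of BT549 minus that of MDA-MB468 on the right. Points are genes, filled and named where the adjusted p was under 0.05, and spread sideways at random. BACH2 at 2.29 and HMOX1 at 2.68 are the calls.

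In the line fit, 27 of the 85 list genes were called higher and 22 lower in BT549, beside 27.3% and 29.5% of all genes. The 4 conditions stand in for replicates there, so p-values measure the spread of the line difference between them. Higher in BT549 were SQSTM1 (log2 fold change 2.03, adjusted p = 0.000513) and HMOX1 (4.97, adjusted p = 0.00141). KEAP1 was lower (-0.79, adjusted p = 0.00441).

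CE cells set against parental cells over 4 strata of line and drug had 0.0609% of all genes called higher and 0.0559% lower in edgeR. Of the 85 list genes 1 was called, AKR1B10, an aldo-keto reductase and NRF2 target, higher in CE cells by 2.01 (adjusted p = 0.0257). AKR1B10 had 33.7 and 137 CPM in parental and CE controls of MDA-MB468 and 0.17 and 0.65 CPM in those of BT549. The call was lost when any of the 4 pairs was left out and with controls alone, over a range of adjusted p from 1.11e-21 to 0.947.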

How the data were processed

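The authors sequenced poly(A) RNA of 8 cultures as paired reads, aligned them with STAR to hg19 and deposited raw counts per gene, whole numbers without normalization. The submitters' processing notes name STAR 2.7.11b. The strand column and annotation are not given in the sources used here. The table has 58154 rows for 55679 identifiers. The 2475 extra rows repeat 1392 identifiers, with the same counts except for 3, and each was used once. CPM was computed on the total count on genes, FPKM with merged exon lengths of an hg19 GENCODE annotation, and log2 ratios after adding 0.5 CPM.

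Tests used edgeR 4.0.16 in R 4.3.3 (quasi-likelihood, TMM, filterByExpr, Benjamini-Hochberg, threshold 0.05), with 3 residual degrees of freedom. The fit with separate Acetalax terms per line, with 2, was added after the data had been seen. The code of the fits was run on simulated counts with known changes. Those counts varied less than these data and held no other differences between backgrounds, so that run does not measure error rates here. Alternatives were DESeq2 1.42.0, its size factors in edgeR, no filter, each pair left out and separate terms. The 6 genes and the 5 lists were chosen with earlier results of these data known. All 6 were named. Genes of the lists were named from each fit as up to 3 called with the largest fold change, or, where Acetalax called none of a list, up to 2 with 1 sign in all 4 pairs, with HMOX1, NQO1, GCLM and KEAP1 in any case, and only some of these are printed. GPX2 and OSGIN1 were named as the ends of the range of the NRF2 targets. Of the 88 list genes 87 were in the table. Promoter windows came from RefSeq.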

Additional observations from a re-analysis of the deposited data

Results flagged for a closer look

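NFE2L2 had Acetalax log2 ratios of -0.24 in MDA-MB468 parental and -0.35 in MDA-MB468 CE cells, and of 0.27 in BT549 parental and 1.02 in BT549 CE cells, so both pairs of one line lay on the other side of 0 from both pairs of the other. That difference was not tested, since the gene was chosen with these ratios known.

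HMOX1, the haem oxygenase, differed between the lines in its Acetalax response by 2.68 on the log2 scale, BT549 minus MDA-MB468 (edgeR adjusted p = 0.00283), and both lines' pairs had opposite signs. FTL, the ferritin light chain, which has pseudogene copies, also had opposite signs in the lines, with a difference of 0.47 that did not pass (edgeR adjusted p = 0.0923). NQO1 likewise had opposite signs, with a difference of 0.29 that did not pass (edgeR adjusted p = 0.267).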

How the results depend on the processing

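Log2 ratios of the 6 genes turned sign under other scalings for NFE2L1 after Acetalax in BT549 CE cells from -0.11 to 0.042 (TMM) and 0.089 (DESeq2 size factors), for NFE2L1 in MDA-MB468 CE cells from -0.042 to 0.027 and 0.041, for NFE2L1 between CE and parental MDA-MB468 controls from 0.049 to -0.001 (DESeq2 size factors), and for MAFG between treated CE and parental BT549 cells from -0.17 to 0.054 (DESeq2 size factors). On log2(FPKM + 1), 0 of the 6 genes in place of 1 passed 2-fold in MDA-MB468 CE cells, and 3 in place of 5 in BT549 CE cells. Counts of genes called between the lines stayed within 1.5 times in 7 of 7 alternatives. For Acetalax, 984 genes were called, against 2678 with DESeq2, 3585 without the filter on low counts and 0 to 554 with a pair left out. The 0 came without the MDA-MB468 parental pair (3491 at an unadjusted p under 0.05). Separate terms in fits of all 8 libraries called 0 for parental cells (1710 at an unadjusted p under 0.05) and 0 for CE cells (2311). Such terms called 1307 for MDA-MB468 and 2558 for BT549. Of the list genes 1 was called, against 9 with DESeq2, 2 with its size factors in edgeR, 12 without the filter and 0 to 3 with a pair left out. With separate terms the list genes called were 0 for parental cells, 0 for CE cells, 6 for MDA-MB468 and 11 for BT549. With its own term for MDA-MB468, HMOX1 turned from 0.71 to -0.66 (edgeR adjusted p = 0.0163), in a range of 8.26e-07 to 0.862. For CE, 23 genes were called, against 925 with DESeq2, 446 without the filter, 0 with controls alone (610 at an unadjusted p under 0.05) and 0 to 10 with a pair left out; of the list genes 1, against 4, 2, 0 and 0 to 0. For the difference of the Acetalax response between lines, 351 genes were called, against 926 with DESeq2, 1632 without the filter and 100 to 1360 with a pair left out, and of the list genes 1, against 3, 7 and 1 to 6, and 2 with DESeq2 size factors. The causes were not tested. With 1 library per condition, counting error is the only error known for a single ratio.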
